A study of Mus musculus with 6 samples.

Results

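The genes described here are those that lie within 1 Mb of either end of Dock3 on mouse chromosome 9, in tibialis anterior muscle of wild-type (WT) mice and of Dock3 knockout (Dock3 KO) mice. Dock3 spans 106892825 to 107231909 on the minus strand (GRCm38), so the window ran from 105892825 to 108231909, a length of 2.34 Mb. A gene was taken when its GENCODE M21 coordinates overlap the window and its mean over the 6 samples was at least 10 normalized counts. Dock3 itself, Dag1 and Rpl29 were left out by name. Of 121 annotated genes in the window, 54 were taken, of 54393 genes in the table and 16031 with a mean of at least 10. The rule uses position, mean level and those 3 names, and was written with earlier results of these data known. Rpl29, one of the genes left out, differed between the genotypes.

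The study measured RNA by sequencing in tibialis anterior, a fast muscle at the front of the lower leg, of adult mice, with 3 WT and 3 Dock3 KO muscles. WT samples carry the replicate numbers 1, 3 and 4 and a C57 title, and Dock3 KO samples the numbers 1, 2 and 3. The genotype label gives no more than WT or Dock3 KO: the strain of the knockout mice, the altered exons, the cells in which the gene is disrupted, and sex are not given in the sources used here. Total RNA was depleted of ribosomal RNA and made into stranded libraries. All values are normalized counts deposited by the authors, which are scaled between samples and not divided by gene length.

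Dock3 encodes an exchange factor that loads the small GTPase Rac with GTP, and it is best known from brain and muscle. An altered allele is passed on together with the DNA around it, and the removal of part of a gene can touch regulatory sequence that serves others, so the neighbours of a knocked-out gene are a standard thing to look at. The stretch around Dock3 is dense with genes. On the side of higher coordinates it holds a cluster whose human counterpart, on the short arm of chromosome 3, is known for its loss in lung and kidney tumours. The genes on both sides of Dock3 work in quite different processes, among them amino acid sensing, hyaluronan breakdown, splicing, axon guidance and haem synthesis.

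Dock3 was low in the Dock3 KO samples, with 169, 161 and 118 normalized counts in WT and 22.4, 1.78 and 1.54 in Dock3 KO (log2 difference -4.76, adjusted p = 0.0140). Dock3 KO replicate 1 retained the most, 15.0% of the WT mean. Summed normalized counts per sample ran from 23520200 to 26507100 in WT and from 25148600 to 33393900 in Dock3 KO. Dock3 KO replicates 1 and 2 stood apart from the other libraries, because Gm42418, a gene that overlaps ribosomal RNA sequence, and Lars2 took 17.9% and 20.3% of their sums, against 3.00% to 3.64% in the other 4 samples. All 10 fibre markers were present at high level, with a summed value of 2236720 to 2634200 in WT and 2355350 to 2665600 in Dock3 KO, and none of them passed the test. In whole muscle, fewer cells of a type and less RNA per cell cannot be told apart. The labels do not say that the 3 muscles of a genotype came from separate animals, so p-values measure the spread between these samples, which may be technical.

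Of the 54 genes, 1 changed between the genotypes. Parp3, an ADP-ribosyltransferase that acts at DNA strand breaks, was higher in Dock3 KO, and the other 53 did not pass an adjusted p of 0.05 (limma, Benjamini-Hochberg over all genes tested). This is 1.85% of the genes near Dock3, against 1.03% of all genes tested, and for a rise alone the share of all genes was 0.443%. The median log2 difference, Dock3 KO minus WT, was -0.06 over the 54 genes and -0.01 over all genes, and the median size of the difference, whatever its sign, was 0.16 and 0.20. The log2 difference was above 0 in 20 of the 54 genes, or 37.0%, against 49% of all genes. For 34 genes the 95% interval of the log2 difference lay within -1 and 1, so a change of more than 2-fold was outside the interval, and for 48 genes it held 0.

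**Figure D1:**
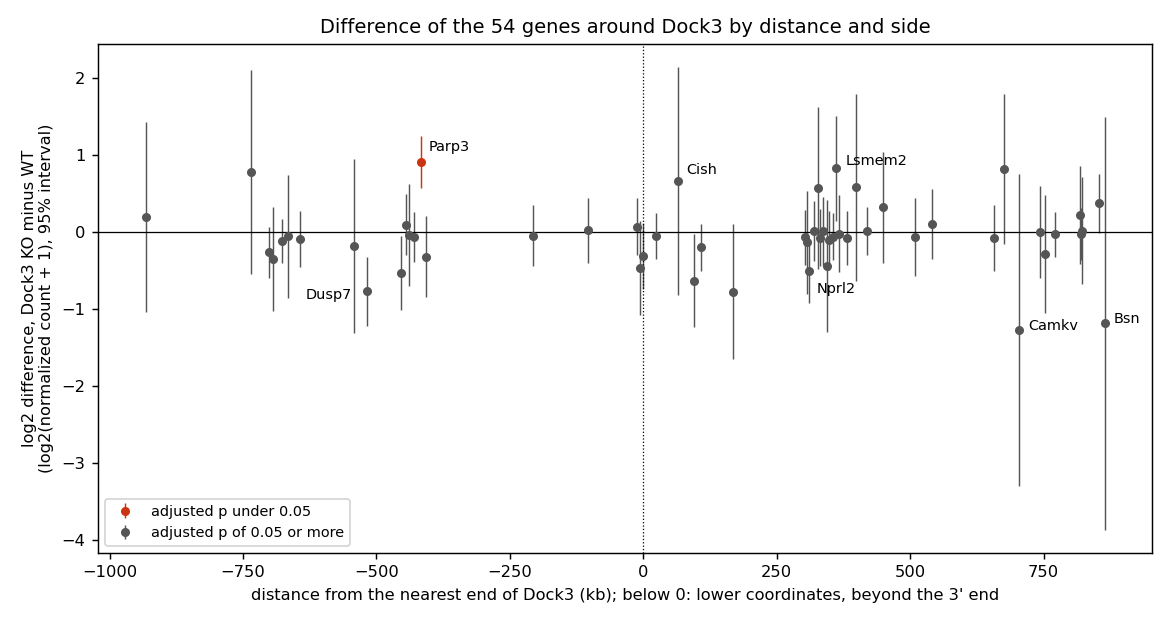
Log2 difference of each of the 54 genes (Dock3 KO minus WT, on the log2(normalized count + 1) scale) against its distance from the nearest end of Dock3 in kb, with lower coordinates to the left. Points are fitted differences and bars their 95% intervals over 3 WT and 3 Dock3 KO samples. Parp3, at 0.91, is the one red point, and intervals are widest for Bsn and Camkv.

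Parp3 (ENSMUSG00000023249) lies at 106470322 to 106476949 on the minus strand, 416 kb from Dock3 on the side of lower coordinates. Its values were 598, 576 and 605 normalized counts in WT and 1201, 920 and 1259 in Dock3 KO. The WT samples were nearly alike, every Dock3 KO sample was above every WT sample, and Dock3 KO replicate 2 was the lowest of its group. The means were 593 ± 15.0 (SD, n = 3) and 1127 ± 181 (SD, n = 3), a ratio of 1.90. On the log2 scale Dock3 KO exceeded WT by 0.91 (standard error 0.15, 95% interval 0.58 to 1.25, adjusted p = 0.0180).

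The call on Parp3 depends on the settings, while its direction does not. Over 18 alternative analyses the log2 difference stayed between 0.64 and 1.11, and the adjusted p was under 0.05 in 8 and above it in 10, with a range from 0.0081 to 0.205. Leaving out a single sample gave an adjusted p of 0.0646, 0.0958 and 0.0770 without WT replicate 1, 3 or 4, and of 0.0588, 0.0128 and 0.0870 without Dock3 KO replicate 1, 2 or 3. Without both Dock3 KO libraries that stood apart, the difference was 1.09 and the adjusted p 0.0950, from a fit in which the single remaining Dock3 KO sample is assumed to vary like the others. Rescaling every library to an equal total gave 0.64 (adjusted p = 0.205). That scaling moved the median of all genes to -0.28. With a replicate block the difference of Parp3 was 1.07 (adjusted p = 0.0431), and it rested on replicates 1 and 3 of each genotype alone.

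**Figure D2:**
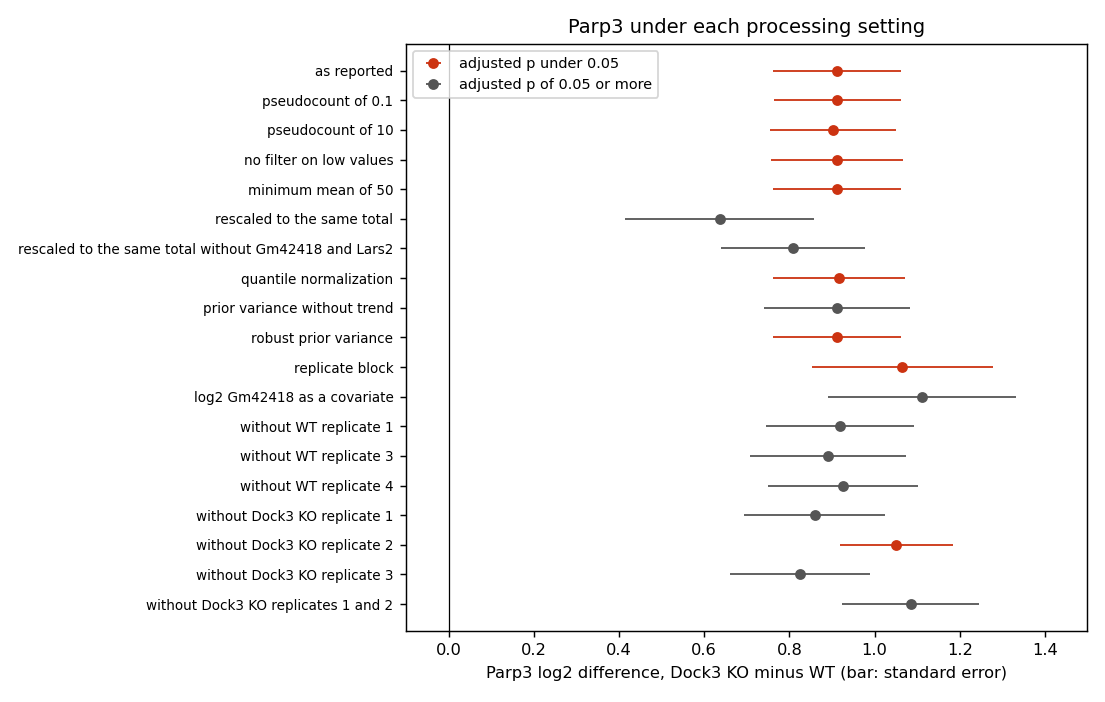
Log2 difference of Parp3 (Dock3 KO minus WT) under the reported analysis and 18 alternatives. Points are fitted differences, bars are standard errors, and red marks an adjusted p under 0.05. All 19 points lie to the right of 0, between 0.64 and 1.11.

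Parp3 starts head to head with Rrp9, which encodes a protein of the small nucleolar particle that processes ribosomal RNA and is read from the plus strand (106475963 to 106485424). In GENCODE M21 the annotated genes overlap at their 5′ ends, and the RefSeq start of Rrp9 lies farther along, inside that interval and beyond the start of Parp3. The sequence around the RefSeq starts is shown because the stretches before both genes overlap. Each line gives the 250 bases before the RefSeq start of the gene (GRCm38.p6), 5′ to 3′ on the strand of the gene. The 141 bases that the stretches share, at 106477059 to 106477199, are in capitals, and are the reverse complement of each other.
Parp3, chr9:106476950-106477199, minus strand: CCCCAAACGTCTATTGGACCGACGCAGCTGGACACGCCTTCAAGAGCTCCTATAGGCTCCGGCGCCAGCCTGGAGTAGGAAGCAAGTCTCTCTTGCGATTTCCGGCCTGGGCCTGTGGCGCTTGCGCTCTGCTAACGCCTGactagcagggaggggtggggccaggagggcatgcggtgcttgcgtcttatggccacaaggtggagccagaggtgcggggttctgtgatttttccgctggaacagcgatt
Rrp9, chr9:106477059-106477308, plus strand: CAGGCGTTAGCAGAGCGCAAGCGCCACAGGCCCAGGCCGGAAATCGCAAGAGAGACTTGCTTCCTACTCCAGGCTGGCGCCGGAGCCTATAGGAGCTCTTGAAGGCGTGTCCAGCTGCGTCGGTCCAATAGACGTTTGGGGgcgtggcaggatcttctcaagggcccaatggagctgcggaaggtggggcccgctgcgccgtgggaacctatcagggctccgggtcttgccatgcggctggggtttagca

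These stretches hold 16 and 18 CpG sites, with 61.2% and 63.6% of G and C. A few core promoter motifs were searched on both strands. CCAAT was found 1 time before Parp3 and 2 times before Rrp9, and 33.8% of 32851 RefSeq promoter stretches of equal length hold it. Neither GGGCGG, found in 32.7% of all stretches, nor TATAAA, found in 12.4%, is in these letters. A RefSeq promoter entry was found for 43 of the 54 genes.

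Rrp9 had 150, 246 and 185 normalized counts in WT and 164, 121 and 175 in Dock3 KO, and the genotypes overlapped. Its log2 difference was -0.32 (adjusted p = 0.720), opposite in sign to that of Parp3. The log2 ratio of Parp3 to Rrp9 was 1.99, 1.23 and 1.70 in WT and 2.87, 2.92 and 2.84 in Dock3 KO. Every Dock3 KO sample was above every WT sample. The mean difference was 1.23, with a two-sided exact permutation p of 0.1, the smallest that 3 against 3 samples allow. Exons of Parp3 and Rrp9 share bases on opposite strands, and whether the counting used strand is not given in the sources used here.

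There were 4 pairs among the 54 genes that start within 2000 bases of each other in opposite directions. In the other pairs the log2 ratio of both genes differed between genotypes by 0.14 for Abhd14a and Abhd14b (exact permutation p = 0.7), 0.38 for Cyb561d2 and Nprl2 (p = 0.2) and 0.56 for Gm9917 and Hyal2 (p = 0.4). Adjusted over the 4 pairs by the Benjamini-Hochberg method, the exact permutation p-values ran from 0.4 for Parp3 and Rrp9 to 0.7.

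Rpl29 lies in the window too, 461 kb from Dock3 on the same side as Parp3. This ribosomal protein gene had 1015, 987 and 939 normalized counts in WT and 3668, 2991 and 3501 in Dock3 KO (log2 difference 1.78, adjusted p = 8.0e-05). Its transcript has 35 near-identical copies elsewhere in the annotation. One of them, the processed pseudogene Gm8210 on chromosome 1, is 99.5% identical over 422 bases and had 1322, 1783 and 1870 normalized counts in WT and was listed at 0 in every Dock3 KO sample. Parp3 has no such copy. Dag1, which encodes dystroglycan, had a log2 difference of 0.01 (adjusted p = 0.995). How reads were divided between Rpl29 and its copies was not tested, and the value of Rpl29 is uncertain. With Rpl29 and Dag1 included, 2 of 56 genes passed, or 3.57%, against 1.03% of all genes tested, a count that includes this uncertain value.

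The genes of the 54 that lie next to Dock3 did not pass the test. Manf, an endoplasmic reticulum protein secreted under folding stress, lies on the same strand as Dock3, and its annotated 5′ end is 0.846 kb beyond the 3′ end of Dock3. Its values were 323, 350 and 467 in WT and 259, 350 and 306 in Dock3 KO (log2 difference -0.31, 95% interval -0.74 to 0.12, adjusted p = 0.643). Rbm15b, an RNA-binding protein of the complex that methylates adenosine in messenger RNA, lies 5.4 kb away and had 456, 211 and 290 in WT and 175, 238 and 252 in Dock3 KO (log2 difference -0.47, adjusted p = 0.622). Without WT replicate 1 the difference of Rbm15b was -0.18, and without WT replicate 3 it was -0.73. For Manf it was -0.15 without WT replicate 4. Both genes overlapped between genotypes, and since their exons share bases on the minus strand their values may not be independent. Dcaf1, a substrate receptor of a cullin ubiquitin ligase, is 11.8 kb away (0.07, adjusted p = 0.940).

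Farther out on that side, Rad54l2, a helicase-like chromatin protein at 104 kb, had a log2 difference of 0.02, and Tex264, a receptor for the selective breakdown of endoplasmic reticulum at 207 kb, one of -0.05. The 5 genes within 250 kb on the lower side ranged from -0.47 to 0.07. None of them had an unadjusted p under 0.05, and in all 5 the genotypes overlapped.

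On the side of higher coordinates, beyond the 5′ end of Dock3, the nearest of the 54 genes was Mapkapk3, a kinase activated by stress kinases, at 23.0 kb. It had 868, 792 and 818 normalized counts in WT and 793, 713 and 893 in Dock3 KO, a log2 difference of -0.05 (adjusted p = 0.946). Cish, a SOCS family inhibitor of cytokine signalling induced through STAT proteins, lies at 64.1 kb. Its values were 358, 768 and 380 in WT and 197, 1557 and 1353 in Dock3 KO. Dock3 KO replicate 1 was the lowest of all samples and the other 2 Dock3 KO samples were the highest, a 7.92-fold span within Dock3 KO that only Camkv and Bsn exceeded among the 54 genes. The log2 difference, 0.66, was no larger than its standard error, 0.66 (adjusted p = 0.809). Without Dock3 KO replicate 1 it was 1.62 (adjusted p = 0.0511), and without replicate 2 or 3 it was 0.13 or 0.23.

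Hemk1, a methyltransferase of translation release factors at 95.2 kb, had 297, 236 and 337 in WT and 146, 150 and 287 in Dock3 KO (log2 difference -0.63, unadjusted p = 0.0420, adjusted p = 0.448). Dock3 KO replicate 3, the library with an ordinary share of Gm42418 and Lars2, lay within the WT range. Without the other 2 Dock3 KO libraries the difference was -0.0011, and with log2 Gm42418 as a covariate it was 0.058. 6430571L13Rik, a protein-coding gene at 109 kb, had a difference of -0.20 (adjusted p = 0.689). Cacna2d2, an auxiliary subunit of voltage-gated calcium channels at 168 kb, was low in all samples, with 23.5, 34.0 and 41.6 in WT and 18.0, 15.6 and 22.0 in Dock3 KO. Its genotypes did not overlap, and its log2 difference was -0.78 with an interval of -1.65 to 0.10 (adjusted p = 0.539).

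**Figure D3:**
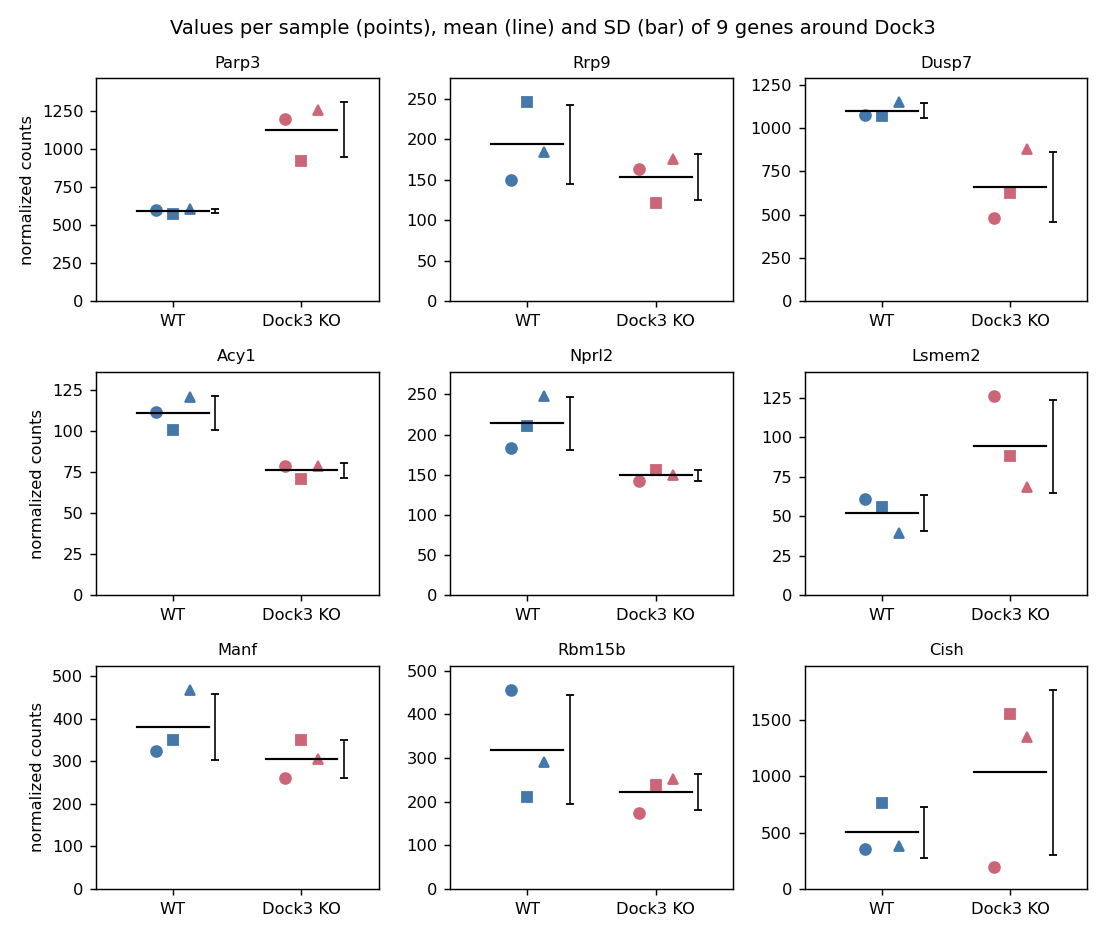
Normalized counts of 9 genes near Dock3 in each sample (points; circle, square and triangle are replicates 1, 3 and 4 in WT and 1, 2 and 3 in Dock3 KO), with the group mean (line) and SD (bar), n = 3 per genotype. Axes start at 0. Parp3 shows a tight WT group below all Dock3 KO samples, and Cish a Dock3 KO group from 197 to 1557.

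Without any model, the genotypes did not overlap in 6 of the 54 genes, or 11.1%, against 16.2% of all genes tested. Parp3 and Lsmem2 were higher in every Dock3 KO sample, where 7.6% of all genes were, and Dusp7, Acy1, Nprl2 and Cacna2d2 were lower, where 8.65% were. An unadjusted p under 0.05 was also found in 6 of the 54, or 11.1%, against 10.5% of all genes tested. These were Parp3, Dusp7, Nprl2, Lsmem2, Acy1 and Hemk1. Both of these shares near Dock3 were thus close to or below those across the genome. The share of called genes was higher, 1.85% against 1.03%, and rests on 1 gene. Dock3 and Rpl29, which were both called, were left out by name and are not in these shares.

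Dusp7, a phosphatase that switches off the ERK kinases, lies 517 kb from Dock3 on the lower side, at 106368632 to 106375724. It had 1077, 1071 and 1149 normalized counts in WT and 482, 623 and 881 in Dock3 KO. WT samples were close together and the Dock3 KO samples were spread below them. The log2 difference of -0.77 (standard error 0.20) did not pass the test (adjusted p = 0.150). Without Dock3 KO replicate 3, the highest of its group, the difference was -1.0 and passed the threshold (adjusted p = 0.0331), in a fit in which Parp3 did not. Without Dock3 KO replicates 1 and 2, the libraries that stood apart, it was -0.32 (adjusted p = 0.679), and with log2 Gm42418 as a covariate it was -0.27 (adjusted p = 0.898).

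Acy1, an enzyme that frees amino acids from their acetylated form, had 112, 100 and 121 in WT and 78.8, 70.9 and 78.6 in Dock3 KO (log2 difference -0.54, adjusted p = 0.404). Nprl2, a subunit of the GATOR1 complex that holds back mTORC1 when amino acids are scarce, had 183, 211 and 248 in WT and 143, 156 and 149 in Dock3 KO (log2 difference -0.51, adjusted p = 0.348). For both genes all Dock3 KO samples were below all WT samples, and the Dock3 KO samples were the less spread. Lsmem2, a small single-pass membrane protein gene that this annotation types as a lincRNA, had 60.7, 56.1 and 39.2 in WT and 126, 88.0 and 68.6 in Dock3 KO (log2 difference 0.83, adjusted p = 0.350). Its groups were separated by a narrow gap.

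By stretch, the 20 genes on the lower side held the single call, 3 unadjusted p-values under 0.05 and a median log2 difference of -0.08. The 34 genes on the higher side held no call, 3 such p-values and a median of -0.04. Within 250 kb of Dock3, on both sides, 0 of 10 genes were called and 1 had an unadjusted p under 0.05. Between 250 and 500 kb the counts were 1 and 4 of 22, and between 500 kb and 1 Mb they were 0 and 1 of 22. Of all genes tested, 1.03% were called and 10.5% had an unadjusted p under 0.05. Across the 54 genes, the size of the difference and the distance from Dock3 had a Pearson r of 0.06 and a Spearman rho of 0.03. The size of the difference and the mean level had a Pearson r of -0.41 and a Spearman rho of -0.35. Genes of 1 stretch share libraries, and these values describe the genes and test nothing.

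The stretches beyond the window give the same measures. Of 35 genes at 1 to 2 Mb on the higher side, 9 had an unadjusted p under 0.05, or 25.7%, the genotypes of 12 did not overlap, or 34.3%, and none passed the adjusted threshold. Of 10 genes at 1 to 2 Mb on the lower side, the counts were 1 and 2. Between 1 and 10 Mb 1 gene was called, Rab6b, a Rab GTPase of membrane traffic, 3708 kb away on the lower side. It had 78.7, 14.0 and 20.7 in WT and 471, 306 and 461 in Dock3 KO (log2 difference 3.78, adjusted p = 0.0062). Over the 878 genes of chromosome 9 outside the window, 0.797% were called, 10.9% had an unadjusted p under 0.05 and 16.5% did not overlap. How the share near Dock3 differs from these was not tested.

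**Figure D4:**
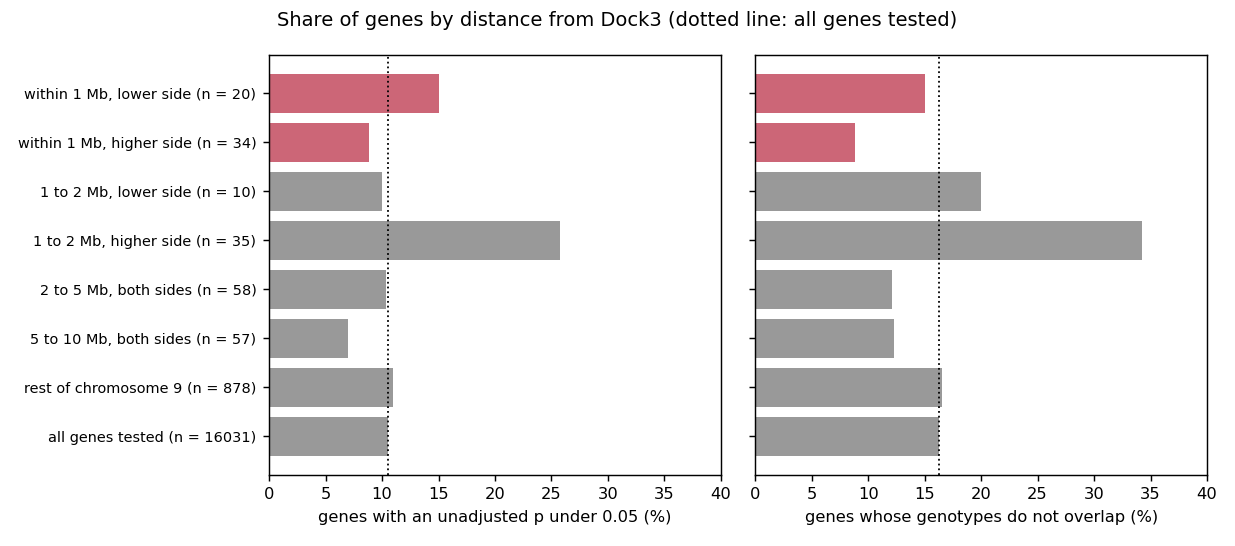
Share of genes, in percent, with an unadjusted p under 0.05 (left) and with genotypes that do not overlap (right), by stretch of chromosome 9 (bars, number of genes in brackets); the dotted line is the share of all 16031 genes tested, 10.5% and 16.2%. Red bars are the genes within 1 Mb of Dock3, at or below the line except for the lower side on the left, where 3 of 20 genes count.

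On the lower side between 250 and 500 kb, the remaining genes were the hydrolases Abhd14a (log2 difference 0.10) and Abhd14b (-0.04) and the poly(C)-binding protein gene Pcbp4 (-0.07). Between 500 kb and 1 Mb lay Poc1a, a centriole protein gene (-0.19), Alas1, the first enzyme of haem synthesis (-0.09), Tlr9, a sensor of unmethylated DNA (-0.06), Twf2, an actin monomer-binding protein gene (-0.12), the phosphatase gene Ppm1m (-0.35), Wdr82, a subunit of histone methyltransferase complexes (-0.27), the glycerate kinase gene Glyctk (0.78) and Col6a5, a collagen VI chain (0.19). None of these passed the test. Twf2 had the highest level per kilobase of exon of all 54, 710 normalized counts per kb, with 1642, 1648 and 1844 in WT and 1767, 1516 and 1457 in Dock3 KO, and the genotypes overlapped. Glyctk was near the minimum level, with a mean of 17.0.

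On the higher side, the dense cluster from Cacna2d2 to Rbm6 was described by a list of genes whose human counterparts form the tumour suppressor region. Of 18 listed genes in the table, 15 had a mean of at least 10, all of them among the 54. None was called, against 1.03% of all genes tested. In 4, or 26.7%, the log2 difference was above 0, against 49% of all genes. The median was -0.07, against -0.01 over all genes. Their summed level was 4871 to 5670 in WT and 4835 to 5475 in Dock3 KO. Gnai2, an inhibitory G protein subunit, had 1038, 1288 and 1141 in WT and 1209, 889 and 1200 in Dock3 KO (log2 difference -0.08). Tusc2, a mitochondrial protein with the second highest level per kb, 368, had a difference of -0.07.

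Of the hyaluronidases, which cut hyaluronan, Hyal2 had a log2 difference of 0.01 and Hyal1 one of -0.44 (adjusted p = 0.767), and Hyal3 was under the minimum with a mean of 5.10. Hyal1, Naa80 and Hyal3 share exon bases on the plus strand. Naa80, the enzyme that acetylates actin, had the narrowest Dock3 KO group of the 54, with its highest sample 1.07 times the lowest, and a difference of -0.11. The splicing regulators Rbm5 and Rbm6 were at -0.07 and 0.10. Rassf1, a scaffold of Hippo signalling, was at 0.01, the Golgi protein gene Tmem115 at -0.07, the electron carrier gene Cyb561d2 at -0.13, and Ifrd2, a factor on idle ribosomes, at -0.06. Sema3b and Sema3f, secreted guidance cues, were at -0.02 and 0.32. The glutamine transporter gene Slc38a3, which is not on the list, was at 0.01, and Gm9917, an antisense RNA, and Gm19721, a locus whose type the annotation leaves to be determined, were at 0.57 and 0.58, both with means under 50.

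From 500 kb to 1 Mb on the higher side lay Rbm5, Rbm6 and 11 others. Mst1r, the receptor of macrophage-stimulating protein, had 36.1, 32.7 and 45.5 in WT and 44.0, 48.5 and 143 in Dock3 KO (log2 difference 0.82, adjusted p = 0.578), and without Dock3 KO replicate 3 the difference was 0.29. Apeh, an acylpeptide hydrolase, had 301, 348 and 268 in WT and 451, 396 and 340 in Dock3 KO (0.37, unadjusted p = 0.0582, adjusted p = 0.50). Rnf123, a ubiquitin ligase, was at -0.03, as was Ip6k1, an inositol phosphate kinase. Uba7, the activating enzyme for a ubiquitin-like interferon product, was at 0.00, Mon1a, a factor of endosome maturation, at -0.07, and Inka1, an inhibitor of a PAK family kinase, at -0.29. Gmppb, which makes the mannose donor GDP-mannose, was at 0.22, and the cell adhesion gene Amigo3 at 0.02.

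The largest negative differences near Dock3 were those of Camkv, a kinase-like protein of neurons, and Bsn, a scaffold of the presynaptic active zone, and both had wide intervals. Camkv had 45.1, 9.58 and 26.0 in WT and 17.8, 1.2 and 21.6 in Dock3 KO (log2 difference -1.27, interval -3.30 to 0.76, adjusted p = 0.709), and without Dock3 KO replicate 2 the difference was -0.20. Bsn had 133, 8.12 and 5.97 in WT and 37.8, 4.61 and 2.32 in Dock3 KO (-1.19, interval -3.87 to 1.5, adjusted p = 0.813). Replicate 1 was the highest for Bsn in each genotype, and without WT replicate 1 its difference was 0.17. The neuronal marker Snap25 had 247, 5.0 and 3.24 in WT and 74.6, 0 and 3.87 in Dock3 KO. Replicate 1 was also the highest in each genotype for the markers Tubb3 and Nefl, but not for Stmn2 and Rbfox3. Stmn2 had 98.2, 101 and 83.3 in WT and 53.0, 57.6 and 64.0 in Dock3 KO. Tubb3 and Stmn2 were lower in every Dock3 KO sample, while the mean of Rbfox3 was 3.88 in WT and 8.74 in Dock3 KO. Summed over the 5 neuronal markers, of which 3 had a mean of at least 10 and none was called, the level was 110 to 413 in WT and 81.8 to 156 in Dock3 KO, and its part in the values of Bsn and Camkv was not tested.

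**Figure D5:**
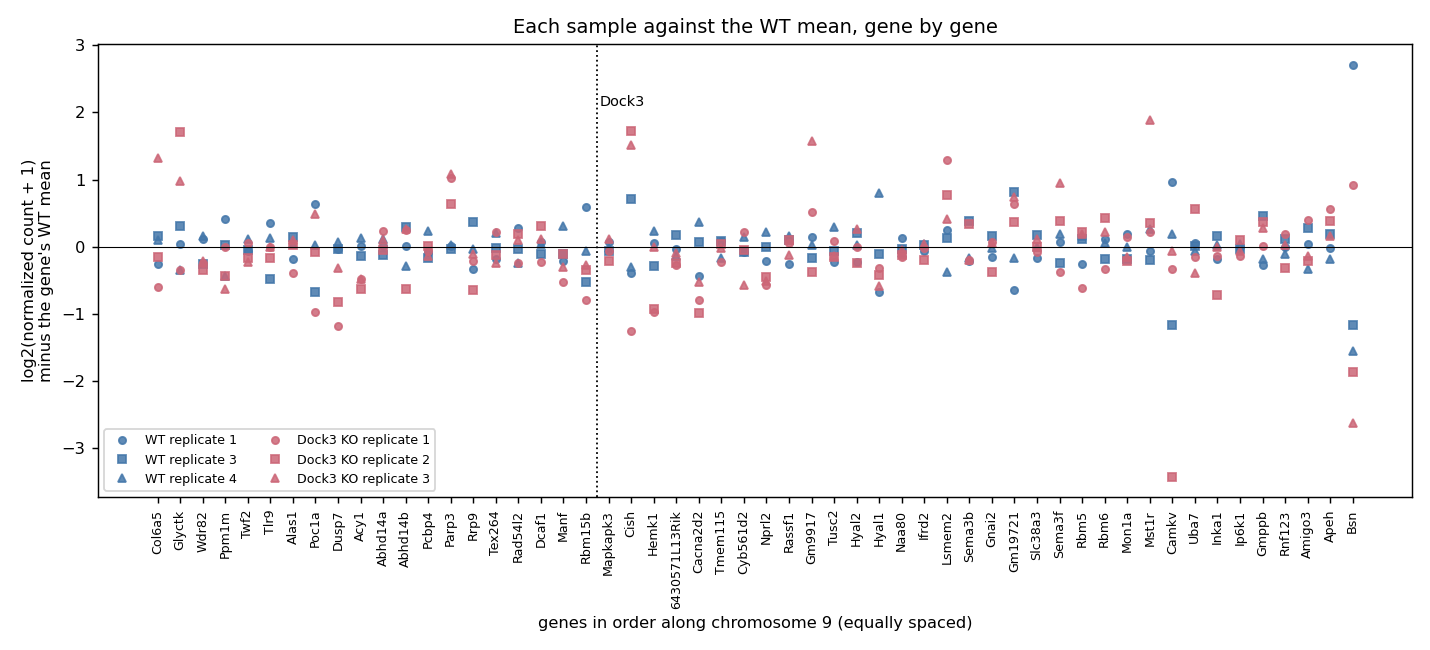
Log2(normalized count + 1) of each sample minus the WT mean of the gene, for the 54 genes in order along chromosome 9 (equally spaced, dotted line at Dock3). Blue marks are WT and red marks Dock3 KO samples, 3 each. Most genes lie within 1 of 0, and the widest scatter is at Cish, Camkv and Bsn.

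Sample by sample, the 54 genes summed to 20597, 21718 and 21715 normalized counts in WT and 19725, 20929 and 22439 in Dock3 KO, so the groups overlapped. The median log2 difference from the WT mean was -0.14 in Dock3 KO replicates 1 and 2 and -0.0014 in replicate 3. In replicate 1, 9 genes were above the range of the WT samples and 21 below it, in replicate 2 these were 12 and 21, and in replicate 3 they were 13 and 12. Across all genes tested, 26.4% to 27.7% were above and 27.8% to 29.5% below in each Dock3 KO sample. The libraries with more genes below than above were those with the high share of Gm42418 and Lars2, and the part of that share in the result was not tested. Within groups, the median SD of the log2 values of the 54 genes was 0.22 in WT and 0.25 in Dock3 KO, against 0.24 and 0.26 over all genes.

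Relatives of the neighbours in other parts of the genome were looked at by list. Their counts of calls stand beside a share of 1.03% over all genes tested. GATOR1 has 3 subunits, and none was called: beside Nprl2, Depdc5 had a log2 difference of -0.23 and Nprl3 one of 0.00. Of 9 haem synthesis genes none was called, with a median of 0.04. The erythroid enzyme Alas2 was at 0.63 (adjusted p = 0.508), and the 6 erythrocyte markers, Alas2 among them, summed to 28568 to 54967 in WT and 36989 to 97745 in Dock3 KO. Of 8 SOCS genes, Cish among them, none was called, and their differences ran from 0.00 to 0.81 with a median of 0.19. Genotypes did not overlap in 1 of the 3 GATOR1 genes, 1 of the 9 haem synthesis genes and 0 of the 8 SOCS genes. Of all genes tested, 16.2% did not overlap.

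Of the 4 alpha2delta calcium channel subunits, 1 was called, where 1.03% of all genes were. Every Dock3 KO sample was below every WT sample in 3 of the 4, Cacna2d2, Cacna2d3 and Cacna2d4, where 8.65% of all genes were. This was the largest such share among the lists of relatives, which were chosen with earlier results of these data known. The called gene, Cacna2d4, had 182, 336 and 309 normalized counts in WT and 80.2, 76.6 and 127 in Dock3 KO (log2 difference -1.52, adjusted p = 0.0394). The call held in 10 of 18 alternatives and was lost in 8, with an adjusted p of up to 0.642 and a difference between -1.80 and -0.96. It was lost without WT replicate 3 or 4 and without Dock3 KO replicate 1 or 2 (adjusted p = 0.178, 0.181, 0.112 and 0.179), and without both of these Dock3 KO libraries (-1.06, adjusted p = 0.576). Cacna2d3 had 62.3, 40.7 and 45.2 in WT and 11.5, 21 and 17.6 in Dock3 KO (-1.52, adjusted p = 0.136), and Cacna2d1, the major form of skeletal muscle, was at 0.31 (adjusted p = 0.658). Of 14 class 3 semaphorins and receptors, and of 21 genes of GDP-mannose synthesis and dystroglycan glycosylation, none was called, with medians of 0.00 for each. Genotypes did not overlap, in either direction, in 3 of the 14 and in 3 of the 21, against 16.2% of all genes.

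At the limits of the window, Col6a6, just outside the lower edge, had a log2 difference of 0.57 (adjusted p = 0.196), against 0.19 for Col6a5 just inside. Nicn1, just outside the higher edge, was at 0.45 (adjusted p = 0.472), against -1.19 for Bsn inside. The member with the lowest mean was Gm19721, at 13.8, and the gene just under the minimum was Gnat1, a G protein subunit of rod photoreceptors, with a mean of 9.33.

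Of the genes in the window that were not taken, 64 had a mean under 10, and 29 of these were at 0 in all 6 samples, among them 5 members of the Iqcf family. None of the 54 overlaps Dock3. Dock3 overlaps 7 other annotated genes, of which 4930524O07Rik and Gm17205 had means of 5.20 and 4.31 and the rest were listed at 0. Of the 54, 51 are annotated as protein-coding, 34 overlap another annotated gene, and 18 share exon bases with a gene on the other strand, where reads can be assigned to either gene if strand was not used.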

How the data were processed

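RNA was sequenced from 3 WT and 3 Dock3 KO muscles. The authors deposited 1 table of normalized counts, treated here as a signal because the values are neither whole nor of fixed sum; whole reads were not recovered, so no count model was run and depth is not known per gene. Per the submitters' processing notes, FastQC, Trim Galore 0.4.5, Salmon 0.12.0, DESeq2 1.22.1 and R 3.5.3 were used with mm10/GRCm38; the step each served, the annotation and the use of strand are not given in the sources used here. The scaling between samples sets the scale of every difference, and whether it used 1 factor per sample is not given in the sources used here.

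All 54393 identifiers matched GENCODE M21, which gave symbols and positions. Values were compared as log2(normalized count + 1) with limma 3.58.1 in R 4.3.3 (trended prior variance, no covariate) over the 16031 genes with a mean of at least 10, with Benjamini-Hochberg adjustment over all of them and a threshold of 0.05. Single log ratios had exact permutation tests. On simulated data, 170 of 200 changed genes were called, all in the right direction, with 10 unchanged genes. The simulated differences were all larger than that of any of the 54 genes. The simulated spread followed the trend with mean level alone, with no further variation between genes. The rate of calls for differences of the size found in the 54 genes, under 1 on the log2 scale in 52 of them, was not tested. Near-identical transcripts (at least 95% identity over 50% of the shorter and 100 bases) were searched with blastn 2.17.0: 3 of the 54 genes matched only short repeat-like RNAs. Promoter sequences are from RefSeq (GRCm38.p6).

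The genes and lists were chosen with earlier results of these data known. Named are genes past the threshold, genes whose genotypes do not overlap, the 5 nearest on each side, the 3 largest differences in each direction, the 3 highest levels per kb and those at the limits of the rule; others are given by their difference. Alternatives were pseudocounts of 0.1 and 10, no minimum or one of 50, other scalings, other prior variances, a replicate block, a covariate and left-out samples.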

Additional observations from a re-analysis of the deposited data

How the results depend on the processing

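The count of called genes, 1 of 54, became 0 when libraries were rescaled to an equal total, with or without Gm42418 and Lars2, with a prior variance without trend, with log2 Gm42418 as a covariate and without Dock3 KO replicates 1 and 2 together, an alternative chosen after seeing the data; leaving out single replicates gave 0 to 1. The median log2 difference, -0.06, was -0.33 and -0.16 under the rescalings, which moved the median of all genes to -0.28 and -0.11, and 0.041 with the covariate. The 6 genes whose genotypes do not overlap became 13 and 10 under the rescalings and 10 to 15 when a single replicate was left out. Without Dock3 KO replicates 1 and 2 they became 25, and fewer samples make separation easier. The share of all genes under these settings was not counted, so these counts show nothing particular to the genes near Dock3. Of 357 values for 20 named genes over 18 alternatives, 322 kept their direction and side of the threshold, 24 changed sign, 10 lost the call (all Parp3) and 1 gained it (Dusp7).

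Sign changes were among differences not called, and the cause was not tested. Under the rescalings Dcaf1 was at -0.21 and -0.034 and Rad54l2 at -0.26 and -0.084. The labels do not say whether replicate numbers pair the samples. Deviations of same-numbered samples had correlations of 0.06 and 0.01, against -0.08 to 0.08 for the other combinations. Just 2 numbers are shared, too few to settle whether samples are paired. A replicate block left 1 residual degree of freedom. Its differences rested on the shared numbers 1 and 3 alone, so WT replicate 4 and Dock3 KO replicate 2 did not enter them. With the block 1 gene was called. Dcaf1 was at -0.028, Rad54l2 at -0.19, Tex264 at 0.094, Mapkapk3 at 0.022, Cish at -0.022 and Tusc2 at 0.11. With the covariate Mapkapk3 was at 0.13, Hemk1 at 0.058 and Camkv at 0.033. Leaving out single replicates gave -0.051 to 0.21 for Dcaf1, -0.10 to 0.16 for Rad54l2, -0.18 to 0.057 for Tex264, -0.13 to 0.029 for Mapkapk3, -2.24 to 0.17 for Bsn and -0.19 to 0.074 for Tusc2, and Mapkapk3 was at 0.11 without Dock3 KO replicates 1 and 2. Precision rests on 3 samples per genotype, and the interval leaves out a 2-fold change for 34 of the 54 genes.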
